A study of Homo sapiens with 18 samples.

Results

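The UGT2B genes encode liver and prostate enzymes that attach glucuronic acid to steroids, bile acids and drugs. The group was chosen by name from the raw count tables and the tables of FPKM, a level in fragments scaled for gene length and library depth. It holds 7 genes: UGT2B4, UGT2B7, UGT2B10, UGT2B11, UGT2B15, UGT2B17 and UGT2B28. Count tables listed 21276 genes at 7 days and 22136 genes at 2 days, and all 7 members were in both. The group was picked because UGT2B28 rose steeply under the drug combination at 7 days, so the difference between combination and vehicle is given below as a description, with no test for any member. RNA-seq was done on C4-2B, an androgen-independent prostate cancer line derived from LNCaP, with no genetic change made for these samples. In the first experiment the cells took vehicle or 0.1 µM VIC-1911, an inhibitor of the mitotic kinase AURKA, for 2 days. In the second they took vehicle, 0.1 µM VIC-1911, 1 µM olaparib (an inhibitor of the DNA repair enzyme PARP) or both drugs for 7 days. Each of the 6 groups had 3 libraries of a single cell line, and nothing in the labels says whether these came from separate cultures, so every p-value measures the spread between libraries, which may be technical.

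Glucuronidation makes androgens water-soluble and ends their hormone action. UGT2B15 and UGT2B17 are the main enzymes for testosterone and dihydrotestosterone and their metabolites in prostate cells, and both genes are known to be repressed by androgen. UGT2B28 also takes steroid substrates, UGT2B11 is a close relative with fewer known substrates, and UGT2B4, UGT2B7 and UGT2B10 are best known from the liver, where they act on bile acids, on many drugs and on nicotine, respectively.

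All 7 genes lie within 989 kb of chromosome 4 (GRCh38, GENCODE release 44). In order, the genes are UGT2B17 at chr4:68537173-68576413 on the minus strand, UGT2B15 at chr4:68646597-68670652 (minus), UGT2B10 at chr4:68815994-68832023 (plus) and UGT2B7 at chr4:69051363-69112987 (plus). They continue with UGT2B11 at chr4:69199951-69214748 (minus), UGT2B28 at chr4:69280475-69295050 (plus) and UGT2B4 at chr4:69480165-69526014 (minus). The coding sequences of UGT2B11 and UGT2B28 were 97.04% identical, with 47 differing bases of 1590 and a longest identical run of 110 bases. Those of UGT2B15 and UGT2B17 were 96.55% identical, with 55 differing bases of 1593 and a longest identical run of 199 bases. The 120-base coding stretch in which UGT2B11 and UGT2B28 differ most is shown because only reads over such capitals tell the copies apart. It spans the start codon in exon 1, at chr4:69214603-69214722 (minus) and chr4:69280501-69280620 (plus), and capitals mark the differing bases.
UGT2B11: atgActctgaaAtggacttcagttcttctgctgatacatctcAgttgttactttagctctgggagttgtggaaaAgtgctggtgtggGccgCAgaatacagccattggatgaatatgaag
UGT2B28: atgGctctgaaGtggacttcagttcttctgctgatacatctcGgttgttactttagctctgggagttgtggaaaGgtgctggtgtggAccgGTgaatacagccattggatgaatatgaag

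Another stretch of the same exon, overlapping the first, held only 2 differing bases, and is shown as sequence in which most short reads could belong to either gene. It lies at chr4:69214510-69214629 (minus) in UGT2B11 and chr4:69280594-69280713 (plus) in UGT2B28.
UGT2B11: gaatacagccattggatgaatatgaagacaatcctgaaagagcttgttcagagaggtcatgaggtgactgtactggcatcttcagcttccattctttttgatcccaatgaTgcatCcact
UGT2B28: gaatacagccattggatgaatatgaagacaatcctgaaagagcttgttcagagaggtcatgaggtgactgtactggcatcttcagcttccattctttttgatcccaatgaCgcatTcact

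For UGT2B15 and UGT2B17, the most different stretch held 15 differing bases, at chr4:68670234-68670353 and chr4:68568100-68568219, both on the minus strand. The last sequence is shared letter for letter by both genes, in exon 2 of UGT2B15 at chr4:68668069-68668188 and exon 3 of UGT2B17 at chr4:68565601-68565720.
UGT2B15: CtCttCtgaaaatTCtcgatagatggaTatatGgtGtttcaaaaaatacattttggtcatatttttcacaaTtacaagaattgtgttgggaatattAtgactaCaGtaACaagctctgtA
UGT2B17: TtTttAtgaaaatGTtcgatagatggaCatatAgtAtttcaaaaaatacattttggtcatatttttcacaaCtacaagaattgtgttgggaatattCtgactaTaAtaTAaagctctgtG
UGT2B15 and UGT2B17: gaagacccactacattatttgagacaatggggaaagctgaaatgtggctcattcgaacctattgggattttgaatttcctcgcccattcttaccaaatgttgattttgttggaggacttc

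Of all windows of 50 bases along the canonical transcript, 40.5% in UGT2B11, 35.2% in UGT2B28, 26.7% in UGT2B15 and 23.2% in UGT2B17 also occurred in another annotated transcript. For windows of 100 bases these shares were 9.22%, 5.63%, 12.4% and 10.6%. Some of the shared windows of UGT2B11 and UGT2B28 were in the pseudogenes UGT2B24P and UGT2B25P. How reads matching several places were counted is not given in the sources used here, so the split of reads within a pair of copies is uncertain and the summed pair is given beside the main results. UGT2B11 also overlaps an annotated gene on the opposite strand, and without a stated strand setting their reads cannot be told apart.

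The libraries held 3245273 to 7184420 counted reads at 2 days and 4967931 to 19684208 at 7 days. The shallowest of the second experiment was olaparib replicate 1, so olaparib against VIC-1911 for UGT2B28 and olaparib against vehicle for UGT2B11 are also given without that library. The vehicle and VIC-1911 libraries of that experiment carry one run of library numbers and its olaparib and combination libraries another, so a difference across the runs cannot be told apart from a difference between drugs in olaparib against vehicle, olaparib against VIC-1911, and combination against vehicle or VIC-1911. VIC-1911 against vehicle and combination against olaparib lie within a run. The luminal marker list (KLK3, KLK2, TMPRSS2, HOXB13, FOLH1, KRT8 and KRT18) had all 7 genes at 1 FPKM or more in every group. Of immune and endothelial markers 0 reached 1 FPKM in any group, and at most 1 of 4 basal, 1 of 4 neuroendocrine and 1 of 5 fibroblast markers did.

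Only 4 of the 7 members had enough reads to be fitted (10 or more counts in 3 or more libraries of a fit): UGT2B11, UGT2B15, UGT2B17 and UGT2B28. A gene that passes only through the group in which it is high had to differ, so a test is given only where 3 or more libraries outside the higher of the compared groups reached 10 counts, and for UGT2B28 outside the vehicle and combination groups that chose it. That left out UGT2B11 and UGT2B28 at 2 days, UGT2B17 against 7-day vehicle and in the interaction, and UGT2B28 in every contrast of 7 days, all described without a test. Statements below that the libraries of groups do not overlap are descriptions too. The share of all genes whose groups part in this way was not counted. UGT2B10 was read 3, 4 and 5 times in the 2-day vehicle libraries and 7, 3 and 4 times with VIC-1911. At 7 days UGT2B10 had 3, 0 and 0 counts in vehicle, 0, 0 and 2 with VIC-1911, 0, 0 and 3 with olaparib, and 4, 5 and 6 with the combination. The combination libraries were thus the 3 highest of that experiment, at a level of 0.0326 ± 0.0101 FPKM (SD, n = 3). UGT2B7 had at most 2 counts in any library, and UGT2B4 had 1 count in 2 combination libraries and in a single 2-day vehicle library and 0 in every other library. A count of 0 allows up to 3 counts in a library, so no fold change is given for UGT2B4 and UGT2B7.

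**Figure D1:**
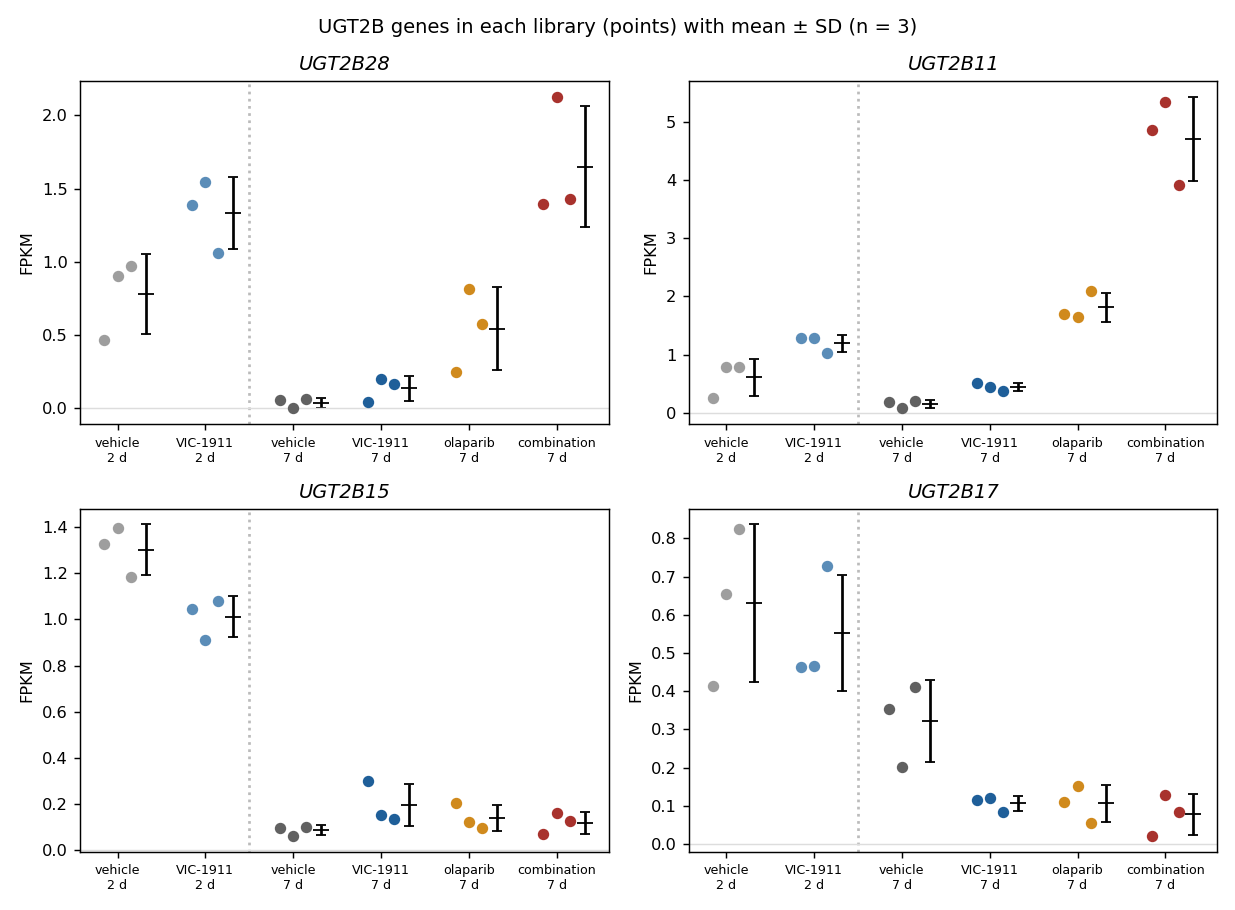
Level of UGT2B28, UGT2B11, UGT2B15 and UGT2B17 in FPKM (y axis, a separate scale for each gene) in each of the 18 libraries (points) with the mean and SD of each group (bars, n = 3). The dotted line parts the 2-day from the 7-day experiment, whose tables were made separately. UGT2B28 and UGT2B11 climb from vehicle to the combination at 7 days, while UGT2B17 is highest in vehicle.

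UGT2B28 was nearly silent in 7-day vehicle cells and highest with both drugs. Its level in vehicle replicates 1 to 3 was 0.0571, 0 and 0.0618 FPKM. With VIC-1911 it was 0.0431, 0.204 and 0.164 FPKM, and the lowest of these lay inside the vehicle range. With olaparib it was 0.250, 0.813 and 0.573 FPKM, and with the combination 1.397, 2.13 and 1.43 FPKM. Every olaparib library was above every VIC-1911 library, and every combination library above every olaparib library. Its counts were 2, 0 and 1 in vehicle, 1, 6 and 6 with VIC-1911, 3, 33 and 27 with olaparib, and 59, 59 and 52 with the combination. In counts, which are not scaled for depth, the shallow olaparib replicate 1 lay below VIC-1911 replicates 2 and 3. The vehicle group thus rested on 3 reads in all, and the ratio of combination to vehicle in summed CPM (counts scaled to the total of a library) was 51.0, with an exact 95% interval of 17.2 to 249.9 that covers counting error only. As a description, with no test because these libraries chose the gene, the fitted log2 fold change of the combination was 5.48 (SE 0.51), a value that depends on the prior count added to a group so near 0 and that ran from 4.68 without vehicle replicate 2 to 6.24 without vehicle replicate 1.

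Between the single drugs, the mean level of UGT2B28 was 0.545 ± 0.283 FPKM with olaparib and 0.137 ± 0.0836 FPKM with VIC-1911 (SD, n = 3 each). The fitted log2 fold change was 2.10 (SE 0.47), and 2.24 without olaparib replicate 1, given with no test because 10 or more counts were reached in only 2 of these 6 libraries and the gene entered the fit through the combination libraries. The ratio of summed CPM was 4.48 (exact 95% interval 2.44 to 8.88, counting error only). The combination exceeded olaparib by a ratio of summed CPM of 2.57 (exact 95% interval 1.91 to 3.49, counting error only) and exceeded VIC-1911 by 11.5 (6.55 to 22.1), both given as descriptions.

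UGT2B11, the neighbour and closest copy of UGT2B28, followed the same order at a higher level per length. It was measured at 0.184, 0.0774 and 0.199 FPKM in 7-day vehicle, and at 0.509, 0.437 and 0.381 FPKM with VIC-1911. Olaparib gave 1.70, 1.64 and 2.10 FPKM, and the combination 4.85, 5.34 and 3.91 FPKM. None of the 4 groups overlapped another. Its counts were 6, 3 and 3 in vehicle, 11, 12 and 13 with VIC-1911, 19, 62 and 92 with olaparib, and 191, 138 and 133 with the combination. Since UGT2B11 can share reads with UGT2B28, its contrasts with the combination are also given without a test. The 7-day vehicle libraries also chose UGT2B28, so the tests of UGT2B11 against them below are not free of that choice. The ratio of summed CPM was 34.7 for combination to vehicle (exact 95% interval 19.7 to 67.6) and 2.54 for combination to olaparib (2.13 to 3.04), both for counting error only.

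With VIC-1911 alone for 7 days, UGT2B11 and UGT2B15, the 2 members for which the contrast was tested, both rose, where 3.46% of the 14409 genes fitted were called higher (6.89% in all), at an adjusted p under 0.05 and at least 2-fold. UGT2B11 rose by 1.57 on the log2 scale (SE 0.45, adjusted p = 0.00450, edgeR's quasi-likelihood test with Benjamini-Hochberg adjustment). Without vehicle replicate 2 this was 1.12 (adjusted p = 0.0680 by the same test), past the fold limit but not the p limit. This test of UGT2B11 used the vehicle libraries that chose UGT2B28, a copy that can share its reads. UGT2B15 rose by 1.16 (SE 0.45, adjusted p = 0.0327 by the same test). UGT2B15 was not called without vehicle replicate 2 (0.88, adjusted p = 0.172 by edgeR), without VIC-1911 replicate 1 (0.78, adjusted p = 0.190), or by DESeq2 (1.18, adjusted p = 0.0722). UGT2B17 differed by -1.56 (SE 0.43), with 28, 19 and 15 counts in vehicle and 6, 8 and 7 with VIC-1911, and is given without a test because it reached the count minimum through the vehicle libraries. Its ratio of summed CPM was 0.347 (exact 95% interval 0.201 to 0.576, counting error only). UGT2B28, whose vehicle libraries were used to choose it, had a ratio of 4.43 in summed CPM (exact 95% interval 1.22 to 24.3, counting error only).

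Olaparib alone against the same vehicle libraries called UGT2B11, 1 of the 2 members tested, where 3.63% of all genes were called higher (7.16% in all). The level of UGT2B11 went from 0.153 ± 0.0663 FPKM in vehicle to 1.81 ± 0.248 FPKM (SD, n = 3 each), a log2 fold change of 3.68 (SE 0.33, adjusted p = 9.0e-11, edgeR's quasi-likelihood test with Benjamini-Hochberg adjustment), or 3.70 without olaparib replicate 1. This test has the same limit, since the vehicle libraries chose UGT2B28 and the copies can share reads. UGT2B15 differed by 0.57 (SE 0.49, adjusted p = 0.340 by the same test) and was not called. UGT2B17, described without a test for the reason given above, had 3, 14 and 6 counts with olaparib and differed by -1.55 (SE 0.42), or by -1.10 without olaparib replicate 3 and -2.13 without olaparib replicate 2. Its ratio of summed CPM was 0.351 (exact 95% interval 0.208 to 0.575, counting error only). The VIC-1911 and olaparib contrasts share their vehicle libraries, so the lower values of UGT2B17 in both are not counted as independent.

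Set against each other, the single drugs differed in UGT2B11 and not detectably in the androgen-inactivating pair. UGT2B11 was called, 1 of the 3 members tested, where 0.895% of all genes were called higher and 1.45% in either direction. UGT2B11 was higher with olaparib by 2.11 on the log2 scale (SE 0.26, adjusted p = 3.4e-07, edgeR's quasi-likelihood test with Benjamini-Hochberg adjustment). UGT2B15 differed by -0.59 (95% interval -1.39 to 0.21) and UGT2B17 by 0.00 (95% interval -1.11 to 1.11), intervals that leave room for a 2-fold difference in either gene.

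**Figure D2:**
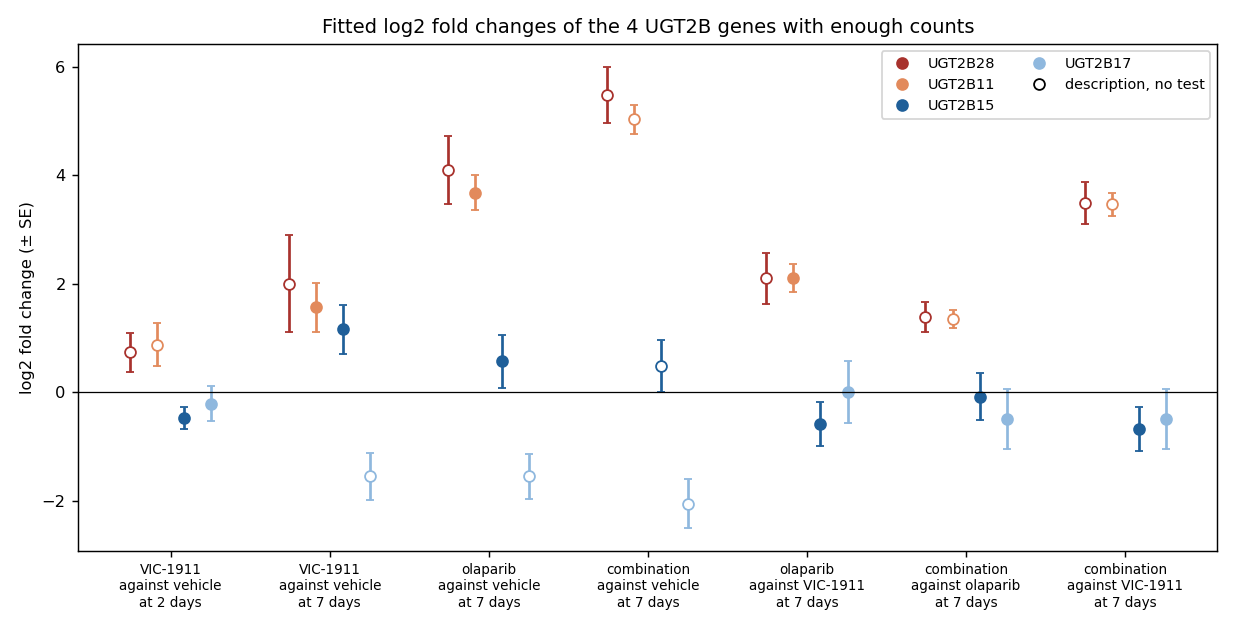
Fitted log2 fold change (y axis, bars ± SE) of the 4 members with enough counts in each contrast between 2 groups (x axis). Filled points were tested and open points are descriptions. UGT2B28 and UGT2B11 lie close together in every contrast, up to 5.48 and 5.03 for the combination against vehicle, and UGT2B17 lies below 0 against vehicle.

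Adding VIC-1911 to olaparib, a contrast within a run of library numbers, called neither UGT2B15 nor UGT2B17, with 0 also at an unadjusted p under 0.05 and 0 by DESeq2 and by limma, and 0.382% of all genes called. UGT2B15 differed by -0.08 (95% interval -0.94 to 0.77) and UGT2B17 by -0.50 (95% interval -1.58 to 0.58). Described on the same scale, UGT2B11 was 1.35 higher (SE 0.16) and UGT2B28 1.39 higher (SE 0.28). Adding olaparib to VIC-1911 also called neither of the androgen-inactivating pair, with 0 at an unadjusted p under 0.05, 0 by DESeq2 and 0 by limma, and 4.05% of all genes called. UGT2B15 differed there by -0.67 (95% interval -1.47 to 0.12) and UGT2B17 by -0.50 (95% interval -1.59 to 0.60).

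Whether the drugs acted together beyond the sum of their log2 changes was asked by the interaction term. It was called for 44.0% of all genes but not for UGT2B15, the only member tested (-1.24, SE 0.63, adjusted p = 0.115, edgeR's quasi-likelihood test with Benjamini-Hochberg adjustment), with 0 at an unadjusted p under 0.05, 0 by DESeq2 and 0 by limma. As a description, UGT2B17 had an interaction of 1.06 (SE 0.72). UGT2B11 rose by 1.57 with VIC-1911 in the absence of olaparib and was 1.35 higher with it in its presence, an interaction of -0.22 (SE 0.46). That of UGT2B28 was -0.61 (SE 0.89). Those of UGT2B11 and UGT2B28 change sign on the log2 scale of FPKM plus a pseudocount and without vehicle replicate 2, so no direction is read from them.

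UGT2B15 and UGT2B17 stayed at low levels throughout the 7-day experiment. UGT2B15 was measured at 0.0926, 0.0585 and 0.100 FPKM in vehicle, 0.297, 0.152 and 0.133 with VIC-1911, 0.203, 0.120 and 0.0947 with olaparib, and 0.0672, 0.161 and 0.122 with the combination. All VIC-1911 libraries were above vehicle, and the other treated groups overlapped it. UGT2B17 was measured at 0.353, 0.202 and 0.410 FPKM in vehicle, 0.114, 0.120 and 0.0845 with VIC-1911, 0.110, 0.152 and 0.0563 with olaparib, and 0.0209, 0.127 and 0.0848 with the combination. Every vehicle library was above all 9 treated ones, which overlapped each other. Described without a test, the combination differed from vehicle by 0.48 (SE 0.48) in UGT2B15 and by -2.06 (SE 0.44) in UGT2B17.

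At 2 days, 0 of the 2 members tested, UGT2B15 and UGT2B17, were called for VIC-1911 against vehicle, against 2.16% of the 12241 genes fitted, at an adjusted p under 0.05 and at least 1.5-fold. DESeq2 and limma also called 0, and 1 of the 2 (UGT2B15) had an unadjusted p under 0.05. UGT2B28 was measured at 0.468, 0.903 and 0.973 FPKM in vehicle and 1.39, 1.54 and 1.06 with VIC-1911. UGT2B11 gave 0.251, 0.793 and 0.783 FPKM in vehicle and 1.28, 1.28 and 1.03 with VIC-1911. In both genes every treated library was above every vehicle library, a description that does not stand in for a test, since the share of all genes so parted was not counted. Described without a test, since both genes reached the count minimum through the VIC-1911 libraries, the log2 fold change was 0.73 for UGT2B28 (SE 0.36) and 0.88 for UGT2B11 (SE 0.40).

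Of the single members, UGT2B15 held the most reads in each of the 6 libraries at that time. UGT2B15 was measured at 1.33, 1.399 and 1.18 FPKM in 2-day vehicle and at 1.05, 0.911 and 1.08 with VIC-1911, all below vehicle, for a log2 fold change of -0.47 (SE 0.21, adjusted p = 0.122, edgeR's quasi-likelihood test with Benjamini-Hochberg adjustment). UGT2B17 gave 0.413, 0.653 and 0.824 FPKM in vehicle and 0.465, 0.465 and 0.728 with VIC-1911, groups that overlapped (-0.21, SE 0.32, adjusted p = 0.722). The 2-day libraries held 44 to 105 reads of the family each.

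The effect of VIC-1911 differed between the times for UGT2B15 and UGT2B17, which were 2 of the 3 members tested, 1 higher and 1 lower, against 14.6% of 13828 genes higher and 14.2% lower (28.7% in all) at an adjusted p under 0.05. The effect on UGT2B15 was higher at 7 days than at 2 days by 1.61 on the log2 scale (SE 0.47, adjusted p = 0.00722, edgeR's quasi-likelihood test with Benjamini-Hochberg adjustment). That on UGT2B17 was lower by a difference of -1.35 (SE 0.51, adjusted p = 0.0423), and this call was lost by DESeq2 (adjusted p = 0.0813), by limma and in most fits that left out a library. For UGT2B11 the difference was 0.65 (SE 0.64, adjusted p = 0.495). Time and experiment cannot be told apart in this contrast.

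Even without a drug the experiments differed. UGT2B15 stood at 1.30 ± 0.110 FPKM in 2-day vehicle and 0.0838 ± 0.0222 in 7-day vehicle, and UGT2B28 at 0.781 ± 0.274 and 0.0396 ± 0.0344 (SD, n = 3 each). UGT2B11 stood at 0.609 ± 0.310 and 0.153 ± 0.0663, and UGT2B17 at 0.630 ± 0.206 and 0.322 ± 0.108. The tables of the experiments were normalized separately, so these levels are set side by side without a test. The combination level of UGT2B28 at 7 days, 1.65 ± 0.414 FPKM, was 2.11 times the 2-day vehicle level, while that of UGT2B11, 4.70 ± 0.725 FPKM, was 7.72 times.

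**Figure D3:**
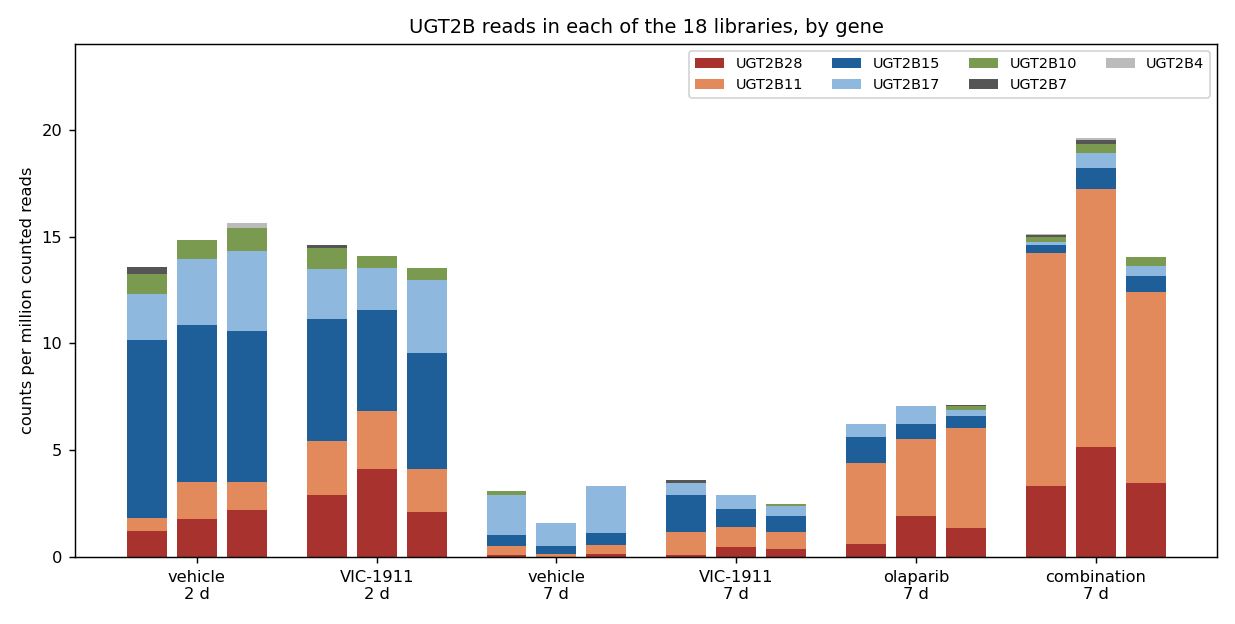
Reads of the 7 UGT2B genes in each of the 18 libraries, stacked by gene, in CPM (y axis, counts scaled to the library total), with the 3 libraries of each group side by side (x axis). UGT2B15 is the largest share at 2 days, and UGT2B11 the largest share with olaparib and with the combination at 7 days.

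Added over the 7 genes, the family took 14.7 ± 1.04 CPM in 2-day vehicle and 14.1 ± 0.547 with VIC-1911 (SD, n = 3 each). At 7 days the sum was 2.68 ± 0.944 in vehicle, 3.01 ± 0.549 with VIC-1911, 6.80 ± 0.489 with olaparib and 16.2 ± 2.95 with the combination. UGT2B11 and UGT2B28 together made up 20.02% ± 5.57 of the family reads in 2-day vehicle and 38.8% ± 9.15 with VIC-1911. The share was 15.04% ± 3.75 in 7-day vehicle, 43.2% ± 8.53 with VIC-1911, 78.2% ± 7.02 with olaparib and 90.1% ± 3.33 with the combination. Read counts are not scaled for length. The lengths behind the 7-day FPKM values were back-calculated from counts, FPKM and library totals, taking the totals of the count table as those used for FPKM. They were about 2368 bases for UGT2B28 and 2208 for UGT2B11, but 5841 for UGT2B15, 5363 for UGT2B17 and 10775 for UGT2B10. The levels in FPKM of UGT2B15, UGT2B17 and UGT2B10 would be higher against their canonical transcripts of 2134, 2481 and 2757 bases.

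Within the pair of UGT2B11 and UGT2B28, the share of reads given to UGT2B28 was 57.9% in 2-day vehicle (22 of 38 reads, 95% Wilson interval 42.2% to 72.1%) and 55.3% with VIC-1911 (57 of 103, 45.7% to 64.6%). At 7 days it was 20% in vehicle (3 of 15, 7.05% to 45.2%), 26.5% with VIC-1911 (13 of 49, 16.2% to 40.3%), 26.7% with olaparib (63 of 236, 21.5% to 32.7%) and 26.9% with the combination (170 of 632, 23.6% to 30.5%). Over single libraries the share ran from 0% to 25% in 7-day vehicle, 8.33% to 33.3% with VIC-1911, 13.6% to 34.7% with olaparib and 23.6% to 29.9% with the combination, ranges that overlapped. Intervals cover counting error only.

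UGT2B15 and UGT2B17 shared their reads otherwise. UGT2B15 held 70.8% of the pair in 2-day vehicle (92 of 130 reads, 95% Wilson interval 62.4% to 77.9%) and 66.9% with VIC-1911 (103 of 154, 59.1% to 73.8%). In 7-day vehicle it held 22.5% (18 of 80, 14.7% to 32.8%). With VIC-1911 the share was 65.6% (40 of 61, 53.0% to 76.3%), with olaparib 55.8% (29 of 52, 42.3% to 68.4%) and with the combination 63.0% (29 of 46, 48.6% to 75.5%). The 7-day vehicle group was the exception in all 3 of its libraries, at 21.1% to 24% each.

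**Figure D4:**
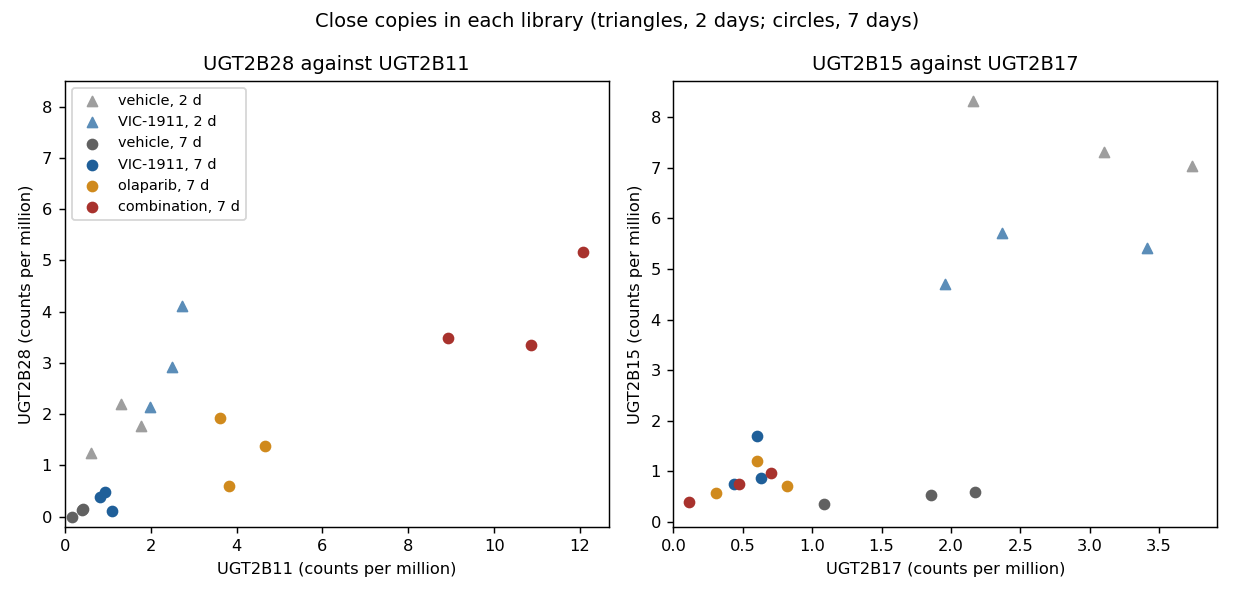
CPM of UGT2B28 against UGT2B11 (left) and of UGT2B15 against UGT2B17 (right) in each library, with triangles for 2 days and circles for 7 days and colours for the groups. The 7-day points of the left pair spread along a line as both genes increase, and the 7-day vehicle points of the right pair lie apart, with more UGT2B17 than UGT2B15.

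Each pair was also summed before the fit, so that the split of reads between its genes played no part. UGT2B11 shared 22.2% of its 50-base windows with the pseudogene UGT2B25P, and the place of reads from such windows was not tested. UGT2B11 and UGT2B28 summed were higher with olaparib than with VIC-1911 by 2.11 (SE 0.23, adjusted p = 6.4e-08, edgeR's quasi-likelihood test with Benjamini-Hochberg adjustment). As descriptions, the sum was 0.80 higher with VIC-1911 at 2 days (SE 0.28) and 1.69 higher with VIC-1911 at 7 days (SE 0.42). At 2 days only 2 vehicle libraries reached the count minimum for the sum, and at 7 days the sum held UGT2B28 with the vehicle libraries that chose it. UGT2B15 and UGT2B17 summed were not called with VIC-1911 at 7 days (-0.39, SE 0.34, adjusted p = 0.353) or with olaparib (-0.75, SE 0.35, adjusted p = 0.0767). With VIC-1911 at 7 days UGT2B15 was higher and UGT2B17 lower, and opposite changes cancel in a sum however the reads were split. The sum is thus no check on the 2 changes seen with the copies counted apart. Whether reads were assigned to the wrong copy was not tested.

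RefSeq promoter sequences (GRCh38.p14) were at hand for UGT2B7, UGT2B10, UGT2B11 and UGT2B15. Those of UGT2B10, UGT2B11 and UGT2B15 are shown from 250 to 131 bases before the start, since the androgen-repressed UGT2B15 and the close relatives UGT2B10 and UGT2B11 differ in the hormone receptor half-sites found there. Capitals mark the nuclear receptor half-site TGACCT and the androgen response half-site AGAACA, searched on both strands, where AGGTCA and TGTTCT are the reverse forms. They lie at chr4:68815744-68815863 (plus), chr4:69214879-69214998 (minus) and chr4:68670783-68670902 (minus).
UGT2B10: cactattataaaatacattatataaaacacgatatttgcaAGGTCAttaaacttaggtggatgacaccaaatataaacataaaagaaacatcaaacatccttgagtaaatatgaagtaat
UGT2B11: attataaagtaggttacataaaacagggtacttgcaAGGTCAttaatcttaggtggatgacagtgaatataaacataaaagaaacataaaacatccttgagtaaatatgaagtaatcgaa
UGT2B15: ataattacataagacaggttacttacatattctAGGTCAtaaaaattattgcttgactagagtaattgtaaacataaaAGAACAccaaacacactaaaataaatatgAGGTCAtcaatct

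The nuclear receptor half-site was found at -210 in UGT2B10, -214 in UGT2B11 and at -217 and -143 in UGT2B15, and the androgen response half-site at -172 in UGT2B15 alone of the 4. Among 35116 promoter windows of the same length, 13.8% held the first and 14.8% the second, so neither is rare. A match is a run of letters and not a shown binding site.

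The genes that flank the cluster were read as well. YTHDC1, an RNA-binding protein gene on the UGT2B17 side, had 4.73 ± 0.114 FPKM in 7-day vehicle and 5.60 ± 0.276 with the combination (SD, n = 3 each) and was called in none of the contrasts, including that of the combination with vehicle (0.24 on the log2 scale, SE 0.05), where 8.54% of all genes were called. TMPRSS11E, a protease gene next to UGT2B17, was too low to be fitted at 7 days, with 1 to 6 counts in vehicle, 9 to 17 with VIC-1911, 3 to 9 with olaparib and 4 to 7 with the combination. SULT1B1 and CSN1S1, beyond UGT2B4, had at most 1 count in any library.

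The genes most like UGT2B11 and UGT2B28 were ranked by the correlation of log2(FPKM + 0.1) with the mean of the pair over the 12 libraries of 7 days, among 12087 genes. They were LGALS3BP (r = 0.991), a secreted glycoprotein, NDRG1 (r = 0.983), an androgen- and stress-responsive gene, SLC25A16 (r = 0.982), a mitochondrial carrier, ENC1 (r = 0.981) and NACC2 (r = 0.979). These correlations rest on 4 groups that share libraries and depth, so they are a description. Of these 5 genes, 1 remained among the first 5 by Spearman's correlation and 0 with a pseudocount of 1, so the list depends on the measure. NDRG1 had 39.2 ± 2.22 FPKM in vehicle, 45.4 ± 0.538 with VIC-1911, 75.9 ± 7.17 with olaparib and 106.5 ± 7.95 with the combination (SD, n = 3 each). Its steps were thus smaller in fold than those of the UGT2B pair. The leading gene for UGT2B17, among 13961 genes, was GPALPP1 (r = 0.970), at 5.77 ± 0.596 FPKM in vehicle and 3.99 ± 0.470 with the combination. There 1 and 2 of the first 5 remained under the same changes.

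The rest of the glucuronidation pathway was read from lists written with earlier results of these data known. Of 15 other UDP-glycosyltransferases (the UGT1A, UGT2A and UGT3A genes and UGT8), only UGT8, which makes galactosylceramide, could be fitted. The mean levels of the UGT1A and UGT2A genes were at most 0.0665 FPKM in every group. UGT8 was lower with the combination than with VIC-1911 (-1.37, SE 0.12, adjusted p = 1.1e-10, edgeR's quasi-likelihood test with Benjamini-Hochberg adjustment). It was also called for the interaction (-1.27, SE 0.17, adjusted p = 3.0e-07) and for the difference of the VIC-1911 effect between the times (0.95 higher at 7 days, SE 0.18, adjusted p = 6.0e-05). Among 10 genes that supply UDP-glucuronic acid or cleave glucuronides, 0 of 9 tested at 2 days and 0 of 10 tested were called with VIC-1911 or with olaparib at 7 days. The shares of all genes were 2.16%, 6.89% and 7.16%, so few calls would be looked for in a list this short. The median log2 change of this list was 0.05 with VIC-1911 and -0.09 with olaparib at 7 days, beside -0.01 and 0.01 over all genes. With the combination against vehicle, 2 of the 10 rose, beside the 8.54% of all genes. PGM2, a phosphoglucomutase, went from 9.39 ± 0.863 to 19.4 ± 0.447 FPKM (log2 fold change 1.06, SE 0.06, adjusted p = 1.7e-14 by edgeR), and SLC35D1, a carrier of UDP-glucuronic acid, from 0.0480 ± 0.0297 to 0.107 ± 0.00604 FPKM (1.11, SE 0.48, adjusted p = 0.0491). The interaction was called for 4 of the 10, 3 higher and 1 lower, beside the 44.0% of all genes. UGDH, the dehydrogenase that makes the cosubstrate UDP-glucuronic acid and named here after its values were seen, stood at 9.49 ± 0.515 FPKM in 7-day vehicle and 9.26 ± 0.385 with the combination.

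Androgen-forming and androgen-converting enzymes had 13 tested genes at 7 days, of which 1 rose with VIC-1911, 2 with olaparib and 0 fell, beside the 6.89% and 7.16% of all genes. With the combination 4 of the 13 were higher than in vehicle, beside 8.54%, and the interaction was lower in 4 and higher in 0, beside 44.0%. CYP11A1, which makes pregnenolone from cholesterol, rose by 2.00 with VIC-1911 (SE 0.29, adjusted p = 1.1e-06, edgeR's quasi-likelihood test with Benjamini-Hochberg adjustment) and by 2.30 with olaparib (SE 0.28, adjusted p = 5.1e-08). Its level was 0.700 ± 0.261 FPKM in vehicle and 2.69 ± 0.673 and 3.44 ± 1.09 with the single drugs. The combination gave 2.62 ± 0.781 FPKM, and the interaction was -2.27 (SE 0.36, adjusted p = 7.1e-06). CYP3A43, of a family that hydroxylates testosterone and the other gene called with olaparib, went from 0.0245 ± 0.0259 to 0.293 ± 0.0829 FPKM and reached the count minimum only through the olaparib and combination libraries. Among 5 tested genes of steroid sulfation 0 were called with a single drug at 7 days, beside the 6.89% and 7.16% of all genes. SULT2B1, a cholesterol and steroid sulfotransferase, was lower with the combination than with VIC-1911 (-1.09, SE 0.21, adjusted p = 8.9e-05) and than in vehicle (-1.54, SE 0.20, adjusted p = 1.0e-07). Of 4 tested carriers, 1 was called with each single drug, beside the 6.89% and 7.16% of all genes. It was ABCG2, an exporter of conjugates, which rose with VIC-1911 (1.78, SE 0.54, adjusted p = 0.00621 by edgeR) and with olaparib (1.78, SE 0.53, adjusted p = 0.00580) from a level of 0.0369 ± 0.0242 FPKM. The lowest VIC-1911 library, at 0.0523 FPKM, lay inside the vehicle range of 0.0220 to 0.0648 FPKM. Both contrasts of ABCG2 used the same vehicle libraries.

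Of 8 tested transcription factors known to act on UGT2B genes, 0 were called at the fold limit with either drug or both, at either time. Shares of all genes there were 2.16% at 2 days, and 6.89%, 7.16% and 8.54% at 7 days with VIC-1911, olaparib and both. In the interaction, where no fold limit applied, 5 of the 8 were higher, beside the 44.0% of all genes called. Of 35 tested androgen-responsive genes, 3 rose and 3 fell with VIC-1911 at 7 days, 7 rose and 4 fell with olaparib, and 8 rose and 4 fell with the combination, beside the 6.89%, 7.16% and 8.54% of all genes given above. At 2 days 5 of 34 tested rose and 1 fell with VIC-1911, beside 2.16%. The interaction was higher in 13 and lower in 14 of the 35, beside 44.0%. The difference between times was higher in 6 and lower in 17, beside 28.7%. The median log2 change of these genes was 0.27 with VIC-1911 at 2 days, and -0.02 with VIC-1911 and -0.15 with olaparib at 7 days. At 7 days STEAP2, a metalloreductase, fell by 1.16 with VIC-1911 (SE 0.05, adjusted p = 4.1e-17, edgeR's quasi-likelihood test with Benjamini-Hochberg adjustment), TSC22D3, a steroid-responsive leucine zipper gene, fell by 1.60 (SE 0.07, adjusted p = 4.4e-17), and MAF, a transcription factor, rose by 1.47 (SE 0.11, adjusted p = 1.1e-12). With olaparib the MAF change was 2.52 (SE 0.10, adjusted p = 5.0e-19).

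Sums of marker lists differed between the groups as well. The summed level of the 7 luminal markers was 4147 to 4189 FPKM in 7-day vehicle, 2828 to 3001 with VIC-1911, 2559 to 2670 with olaparib and 2528 to 2700.2 with the combination. KLK3 alone made up 2681 FPKM of it in vehicle and 1670 with the combination. KRT8 went the other way, from 121 FPKM in vehicle to 163 with the combination, and HOXB13 had 100 in vehicle and 104 with VIC-1911. Against 7-day vehicle at the 2-fold limit, only FOLH1 of the 7 was called lower, with olaparib and with the combination, and 0 were called with VIC-1911. The median log2 change of the 7 with VIC-1911 was -0.55, short of that limit. Without a fold limit, the interaction was higher in 6 and lower in 1, beside 44.0% of all genes called. The difference between times was lower in 6, beside 28.7%. Since UGT2B genes are liver genes, the 7 hepatocyte markers were summed too, and gave 1.74 to 2.995 FPKM in vehicle, 3.49 to 5.08 with VIC-1911, 4.42 to 6.54 with olaparib and 5.96 to 8.39 with the combination. The list did not move together. TTR had 0.395 FPKM in vehicle and 4.74 with the combination, and CYP2E1 1.15 and 2.42. APOA1 went the other way, from 0.624 FPKM in vehicle to 0.211 with olaparib and 0.310 with the combination. Group means of ALB, SERPINA1 and CYP3A4 were at most 0.0213 FPKM. At most 2 of the 7 reached 1 FPKM in a group, and APOB was listed at 0 in every 7-day library. The part of these shifts in the UGT2B results was not tested. In bulk samples, fewer cells that carry a transcript and less of it per cell cannot be told apart.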

How the data were processed

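RNA-seq of 18 C4-2B libraries was used, 3 in each of 6 groups taken from the sample labels. The deposited values are raw counts per gene and FPKM per gene, both made by the authors from reads aligned to GRCh38 with STAR (2.6.0 in the submitters' processing notes; the methods name another version). The authors' FPKM came from an in-house script. The strand setting and the treatment of reads with several matches are not given in the sources used here. At 2 days the FPKM values rest on about 1.23 times the reads of the count table for the median gene.

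Genes with 10 or more counts in 3 or more libraries of a fit were tested in R 4.3.3 with edgeR 4.0.16 (TMM, quasi-likelihood test, Benjamini-Hochberg adjustment), with group as the only term. The 2-day fit used 6 libraries and the 7-day fit 12. Each SE was back-calculated from the log2 fold change and the F statistic of the test. The 95% intervals of log2 changes were built from these SEs with the normal distribution, so both are approximate. A member's p-value is given only where 3 or more libraries outside the higher compared group (for UGT2B28, also outside the groups that chose it) reached that minimum, a rule set after its values were seen. The difference between times used the vehicle and VIC-1911 libraries of both tables. A gene was called when its adjusted p was under 0.05 and it changed by 1.5-fold or more (2 days) or 2-fold or more (7 days), and at an adjusted p under 0.05 alone for the interaction and the difference between times. Ratios of summed CPM carry exact binomial 95% intervals. Coding sequences were aligned with MAFFT 7.526. Alternatives were DESeq2 1.42.0, limma 3.58.1 on log2(FPKM + 0.1) and log2(FPKM + 1), other size factors, no filter, summed copies, a replicate block, the compared groups alone and each library left out. The fits were also run on simulated data, with changes planted only in genes of higher mean count than UGT2B15 and UGT2B17 had at 7 days. That simulation therefore does not cover such low counts.

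Some genes of the lists are not reported here and were left out of them. The members and all lists were chosen with earlier results of these data known. Text names all members, up to 3 called genes of each list in a comparison by adjusted p, and the genes of most similar pattern. Replicate numbers were not used as pairs. Libraries of a group differed by more than sampling noise, so none was a duplicate.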

Additional observations from a re-analysis of the deposited data

Results flagged for a closer look

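The effect of VIC-1911 on UGT2B15 and UGT2B17 differed between 7 and 2 days in a test of the difference itself. For UGT2B15 the difference was 1.61 on the log2 scale (SE 0.47, adjusted p = 0.00722, edgeR's quasi-likelihood test with Benjamini-Hochberg adjustment): treated libraries were all above vehicle at 7 days and all below vehicle at 2 days. Without VIC-1911 replicate 1 of day 7, the library with the highest UGT2B15 level of that experiment, the difference was 1.24 and no longer called (adjusted p = 0.0582 by the same test). For UGT2B17 the difference was -1.35 (SE 0.51, adjusted p = 0.0423), and it was not called in 8 of the 12 fits that each left out a library (adjusted p up to 0.154). Both summed into 1 gene gave a difference of 0.00 (adjusted p = 0.995), but opposite differences cancel in such a sum, so it is no check on either gene. Both genes also differed in level between the vehicle groups of the experiments, and the part of that in the result was not tested.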

How the results depend on the processing

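Of 493 recomputed log2 fold changes of members, 434 were scored as unchanged, 21 lost the call, 27 given without a test moved and 11 changed sign. A tested change was unchanged if it kept its side of the threshold. If uncalled, its sign could turn by less than the SE of the main fit and still count as unchanged. Changes without a test were unchanged if they kept their sign and moved by less than a limit slightly above that SE. The limit is not a spread between libraries. Of 121 recomputed counts of called members, 100 were equal to the main count or within 1.5 times of it. These include contrasts with 0 members called in the main fit, which had no call to lose, so the share does not measure how stable the calls were. Summing close copies left only the sum of UGT2B15 and UGT2B17 to be tested against 7-day vehicle and called 0 for VIC-1911 against vehicle, 0 for olaparib against vehicle and 0 for the difference between times. Opposite changes of the 2 genes cancel in that sum. DESeq2 and limma on log2(FPKM + 0.1) called 1 each for VIC-1911 against vehicle at 7 days. limma on log2(FPKM + 1), which shrinks changes of low genes, called 0 for VIC-1911 against vehicle at 7 days and 0 for olaparib against VIC-1911. For the difference between times, DESeq2, limma with either pseudocount and the fit with no filter called 1 each. Leaving out a library in turn called 0 to 2 members for VIC-1911 against vehicle at 7 days (0 without vehicle replicate 2, 1 without VIC-1911 replicate 1) and 0 to 2 for the difference between times.

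Signs turned, as scored above, for UGT2B17 without olaparib replicate 2. The values were -0.57 for olaparib against VIC-1911 (range over libraries left out -0.57 to 0.46) and 0.074 for combination against olaparib (-0.98 to 0.074). The interaction turned for UGT2B11, to 0.20 and 0.69 by limma (pseudocounts 0.1 and 1) and 0.23 without vehicle replicate 2 (range -0.50 to 0.23), and for UGT2B28, to 0.80, 0.66 and 0.19 in the same fits (range -1.37 to 0.19). The difference between times turned by limma for UGT2B11, to -0.14 (pseudocount 1), and for UGT2B28, to -0.014 and -0.27 (pseudocounts 0.1 and 1). The cause was not tested. The replicate block changed no call: it gave 2 members for VIC-1911 against vehicle at 7 days, 1 for olaparib against vehicle, 1 for olaparib against VIC-1911, 2 for the difference between times and 0 for the others. Libraries sharing a number correlated by -0.0029 to 0.0438 at 2 days and -0.0356 to 0.111 at 7 days, so numbers were not read as pairs. Depth is a limit, with 3 to 62 reads for each of the 4 fitted members in 7-day vehicle.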
